A study of Mus musculus with 12 samples.

Results

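The neutrophil granule and calprotectin genes described here are 7 genes, S100a8, S100a9, Lcn2, Mmp8, Retnlg, Trem1 and Clec4d, taken by symbol from the 18514 genes of the count table. All 7 symbols were found, each in 1 row, and all 7 were among the 15484 genes that passed edgeR's filter on low counts. RNA of mouse colorectal tissue was sequenced in 12 libraries, 3 in each of 4 groups of male C57BL/6 mice bought at 4 weeks of age. Model and Model_Swim mice received azoxymethane (AOM), a carcinogen, once at 10 mg/kg by intraperitoneal injection, and then 3 cycles of 7 days of 2% dextran sulfate sodium (DSS) in the drinking water, which injures the colon lining and causes colitis-associated cancer. Ctrl_Swim and Model_Swim mice swam daily for up to 90 min from 2 months before that treatment until the end, while Ctrl and Model mice were only placed in shallow water. Ctrl and Ctrl_Swim mice had plain drinking water. No group carried an altered gene. The labels number the libraries of a group but do not say that each came from a separate mouse, so the p-values measure the spread between these libraries.

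Neutrophils are short-lived white blood cells that leave the blood for injured or infected mucosa, where they release ready-made granule proteins. S100A8 and S100A9 form calprotectin, which makes up much of the neutrophil's cytosolic protein, binds zinc and manganese away from microbes and is measured in stool as a marker of intestinal inflammation. LCN2 binds bacterial iron carriers and MMP8 is a collagenase, and both are stored in neutrophil granules. The set is not limited to neutrophils, because injured colon epithelium makes LCN2, stressed squamous epithelium makes calprotectin, and monocytes carry TREM1 and CLEC4D. In bulk tissue, fewer cells of a type and less RNA per cell cannot be told apart.

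On GRCm38.p6, S100a8 lies on chromosome 3 at 90669071 to 90670034 on the plus strand, and S100a9 lies at 90692630 to 90695721 on the minus strand, with 22595 bases between them. Lcn2 lies on chromosome 2 at 32384637 to 32387739, Mmp8 on chromosome 9 at 7558429 to 7568486, Retnlg on chromosome 16 at 48872608 to 48874498, Trem1 on chromosome 17 at 48232713 to 48246927, and Clec4d on chromosome 6 at 123262107 to 123275268. In the GENCODE M21 annotation of the same build, 6 of the 7 genes overlapped no other gene. Trem1 overlapped a processed pseudogene on the opposite strand, whose reads cannot be told apart from those of Trem1 if the counting ignored strand. None of the 7 shared a stretch of 50 bases with a GENCODE transcript of another gene.

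RefSeq promoters were available for all 7 genes, and the 250 bases before the start are shown for the calprotectin genes and for Lcn2 and Mmp8. The Trem1 window, chr17:48232489-48232738, is not shown and runs past the gene start of 48232713 given above. C/EBP factors drive the granule genes of maturing myeloid cells. Both strands of the 250 bases were searched for 4 short patterns, and capitals mark matches to the C/EBP pattern TTNNGNAA, where N is any base. The windows are chr3:90668821-90669070 (plus strand), chr3:90695722-90695971 (minus strand), chr2:32387740-32387989 (minus strand) and chr9:7558179-7558428 (plus strand) of GRCm38.p6, each written 5′ to 3′ on the gene's own strand.
S100a8: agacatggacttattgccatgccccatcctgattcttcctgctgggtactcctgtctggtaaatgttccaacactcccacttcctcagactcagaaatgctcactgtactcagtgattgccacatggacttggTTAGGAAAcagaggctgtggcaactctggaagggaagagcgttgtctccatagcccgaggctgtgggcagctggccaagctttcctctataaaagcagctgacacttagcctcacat
S100a9: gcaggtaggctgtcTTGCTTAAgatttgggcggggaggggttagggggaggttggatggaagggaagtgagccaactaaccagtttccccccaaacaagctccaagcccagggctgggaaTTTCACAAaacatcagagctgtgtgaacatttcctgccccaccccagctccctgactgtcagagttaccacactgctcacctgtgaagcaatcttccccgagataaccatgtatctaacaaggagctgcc
Lcn2: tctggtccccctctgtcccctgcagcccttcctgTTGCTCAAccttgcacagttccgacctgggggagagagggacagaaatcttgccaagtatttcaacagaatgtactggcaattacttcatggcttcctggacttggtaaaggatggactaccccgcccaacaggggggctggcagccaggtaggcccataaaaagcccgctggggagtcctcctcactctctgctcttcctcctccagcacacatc
Mmp8: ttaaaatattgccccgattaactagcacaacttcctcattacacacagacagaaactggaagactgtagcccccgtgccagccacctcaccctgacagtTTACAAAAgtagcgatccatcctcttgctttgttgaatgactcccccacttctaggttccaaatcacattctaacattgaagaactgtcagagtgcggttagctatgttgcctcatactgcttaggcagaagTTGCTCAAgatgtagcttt

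The C/EBP pattern was present in all 7 promoters, against 36.8% of the 32851 promoters of the table. The PU.1 pattern GAGGAAG was present in 4 of 7 (S100a8, Lcn2, Mmp8 and Clec4d), against 10.6% of promoters. The STAT pattern TTCNNNGAA was found in Trem1 alone of the 7, against 7.02% of promoters, and the NF-kB pattern (GGG and CC with any 5 bases between them) in Lcn2 alone, against 45.8%. None of these patterns overlapped a C/EBP match in the promoters shown. A match describes the letters and is not a binding site.

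Libraries held between 17256953 and 19451055 counts, so that a count of 3, the limit that a count of 0 allows, is at most 0.174 CPM (a gene's counts set against all counts of its library), with counting error only. Expression is given as CPM after TMM scaling unless FPKM, which also divides by transcript length, is named. Genes were tested by edgeR's quasi-likelihood method in a fit of all 4 groups, adjusting p by Benjamini-Hochberg over the 15484 genes, and were counted as called at an adjusted p under 0.05 with a fold change over 2 or under 0.5. A gene called in Model against Ctrl is said to have risen or fallen. With 3 libraries against 3, no single value can reach a two-sided p below 0.1 by exact permutation of the labels. Marker lists set several libraries apart. The summed CPM of 18 pancreatic acinar genes was 51391 in Model 1 and 25009 in Model 3, against at most 467 in the others. The summed CPM of 20 squamous epithelium genes was 14.6 to 24.5 in the Ctrl libraries and Ctrl_Swim 3, 39.8 in Model 3, 128 in Ctrl_Swim 2, 195 in Model_Swim 1 and from 1037 to 2278 in Ctrl_Swim 4, Model 1, Model 2, Model_Swim 2 and Model_Swim 3. Colon epithelium genes were abundant in every library, with a summed CPM of at least 14967 over 12 genes.

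The comparison of Model with Ctrl asks how AOM/DSS changed these genes. Of the 7 genes, 6 rose in Model against Ctrl, and Retnlg had a higher mean without passing the test. The 6 rose between 6.44-fold (Clec4d) and 61-fold (S100a8). Over all genes tested, 6.21% were called higher and 1.22% lower in this comparison. The 3 Model libraries lay above all 3 Ctrl libraries in the same 6 genes, as they did in 21.0% of all genes tested. S100a8, Mmp8, Trem1 and Clec4d had 10 or more counts in at most 2 of the 6 untreated libraries and so entered the test through the AOM/DSS libraries, where a gene that is high there had to differ. The count of 6 is therefore a description, and the genes are given singly. The adjusted p-values of S100a8, Mmp8, Trem1 and Clec4d against untreated groups carry the same limit and are descriptions as well. The counts in the gene lists below are descriptions too, since some of their genes entered the test in the same way.

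S100a8, a subunit of calprotectin, was measured at 0.0552, 0.273 and 0.0550 CPM in Ctrl 1, 2 and 3 and at 15.1, 8.17 and 1.38 CPM in Model 1, 2 and 3. Model_Swim 1, 2 and 3 held 1.38, 7.67 and 29.6 CPM, and Ctrl_Swim 2, 3 and 4 held 0.110, 0.532 and 2.45 CPM. The AOM/DSS libraries thus spread widely, Model_Swim 3 was the highest of all 12, and Ctrl_Swim 4 lay above Model 3 and Model_Swim 1. Between Model and Ctrl the log2 fold change was 5.93 ± 1.54 (SE, n = 3 per group; edgeR adjusted p = 0.0143). The Ctrl libraries held 1 to 5 counts of S100a8, and the ratio of the summed counts, scaled to the libraries, was 65.3 with a 95% counting interval of 31.4 to 163. The call was lost without Ctrl 1 (adjusted p = 0.0558) and without Ctrl 3 (adjusted p = 0.0581).

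S100a9, the other subunit, had the highest mean FPKM of the 7 genes in both AOM/DSS groups. Its values were 0.221, 0.382 and 0.660 CPM in Ctrl 1, 2 and 3 and 41.1, 20.6 and 2.87 CPM in Model 1, 2 and 3. Ctrl_Swim 2, 3 and 4 held 1.37, 2.02 and 3.48 CPM, and Model_Swim 1, 2 and 3 held 2.70, 24.9 and 87.2 CPM. All 9 other libraries lay above the highest Ctrl library, while Model 3 and Model_Swim 1 lay below Ctrl_Swim 4. S100a9 rose by 5.65 ± 1.37 on the log2 scale in Model against Ctrl (SE, n = 3 per group; edgeR adjusted p = 0.0107).

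Per length, S100a8 was below S100a9 in every library. The ratio of S100a8 to S100a9 in FPKM lay between 0.412 and 0.682 in the 6 AOM/DSS libraries. It spread from 0.107 to 0.955 in the 6 untreated libraries, which held 1 to 48 counts of S100a8. The mean log2 ratio was -0.86 ± 0.20 (SD, n = 3) in Model and -1.60 ± 1.55 (SD, n = 3) in Ctrl, a difference of 0.74 with an exact two-sided permutation p of 0.6, where 0.1 is the smallest possible. Without Ctrl 3 the difference was -0.037. In the 6 AOM/DSS libraries, S100a8 and S100a9 were the pair of the 7 genes whose log2 CPM correlated best (Pearson r = 0.997), a description over libraries of both AOM/DSS groups. The lowest of the 21 pairs in these 6 libraries was S100a8 with Lcn2 (r = 0.792).

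**Figure D1:**
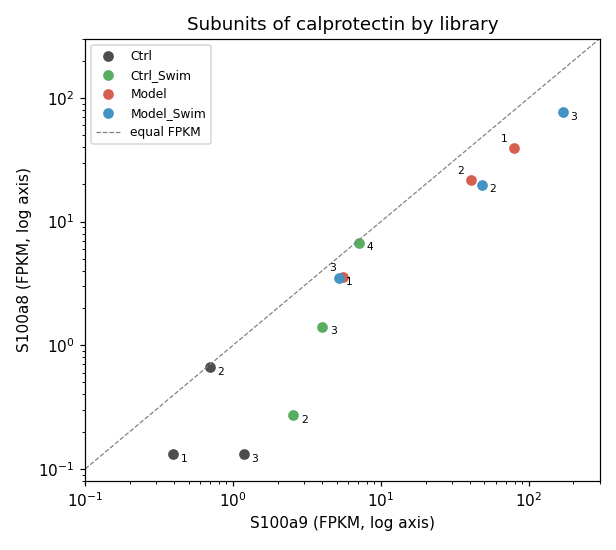
S100a8 against S100a9 in FPKM, both on log axes, with 1 point per library coloured by group and numbered by replicate, and a dashed line at equal FPKM. All 12 points lie below the line, and the 6 AOM/DSS libraries keep a ratio of 0.412 to 0.682 from 5.16 FPKM of S100a9 in Model_Swim 1 to 169 FPKM in Model_Swim 3.

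Lcn2, the iron-carrier binding protein of specific granules and of injured epithelium, was the only one of the 7 with at least 54 counts in every library. Ctrl 1, 2 and 3 held 2.98, 3.54 and 2.97 CPM, and Ctrl_Swim 2, 3 and 4 held 4.05, 3.40 and 8.94 CPM. Model 1, 2 and 3 held 44.5, 20.6 and 4.82 CPM, and Model_Swim 1, 2 and 3 held 19, 45.3 and 43.6 CPM. Only Model 3 of the AOM/DSS libraries lay within the range of the untreated ones, below Ctrl_Swim 4. Lcn2 rose by 2.88 ± 0.69 on the log2 scale in Model against Ctrl (SE, n = 3 per group; edgeR adjusted p = 0.00982). Per length, Lcn2 was above S100a9 in all 3 Ctrl libraries, with an FPKM ratio of 2.76 to 8.29, and the ratio was 0.307 to 4.34 in the AOM/DSS libraries, where it was lowest in Model_Swim 3 and highest in Model_Swim 1.

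Mmp8, the neutrophil collagenase, had the lowest mean FPKM of the 7 in Ctrl, Model and Model_Swim, while Trem1 was lower in Ctrl_Swim (0.0765 against 0.0821 FPKM). It held 1, 0 and 1 counts in Ctrl 1, 2 and 3 and 26, 8 and 2 counts in Model 1, 2 and 3, or 1.39, 0.436 and 0.115 CPM in Model. Ctrl_Swim 2, 3 and 4 held 0.0548, 0.213 and 0.307 CPM, and Model_Swim 1, 2 and 3 held 0.275, 0.598 and 2.12 CPM. The groups Model and Ctrl did not overlap, but Model 3 differed from Ctrl 1 by a single count. Mmp8 rose by 3.92 ± 1.27 on the log2 scale in Model against Ctrl (SE, n = 3 per group; edgeR adjusted p = 0.0357), and the ratio of summed counts was 18.1 with a 95% counting interval of 4.65 to 155. This call was lost without any of Ctrl 1, Ctrl 2, Ctrl 3, Model 1 and Model 2, where the adjusted p was 0.0515 to 0.133.

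Retnlg, a resistin-like protein that mouse neutrophils secrete, differed from the other 6 genes in its overlap. Ctrl 1, 2 and 3 held 1.44, 0.872 and 0.110 CPM, Model 1, 2 and 3 held 4.40, 2.51 and 0.574 CPM, and Model 3 lay below Ctrl 1 and Ctrl 2. Ctrl_Swim 2, 3 and 4 held 0.657, 0.426 and 0.971 CPM, and Model_Swim 1, 2 and 3 held 1.16, 2.34 and 5.30 CPM. The log2 fold change of Model against Ctrl was 1.62 ± 0.85 (SE, n = 3 per group; edgeR adjusted p = 0.160), and its 95% interval ran from -0.05 to 3.29. No alternative setting brought it past the cutoffs.

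The remaining pair are receptors on the surface of myeloid cells. Trem1, which amplifies inflammatory signals through the adaptor DAP12 (gene Tyrobp), held 0.166, 0.109 and 0 CPM in Ctrl 1, 2 and 3 and 2.52, 1.42 and 0.344 CPM in Model 1, 2 and 3. Ctrl_Swim 2, 3 and 4 held 0.274, 0.426 and 0.153 CPM, and Model_Swim 1, 2 and 3 held 0.550, 2.01 and 2.28 CPM. Model 3 was the only AOM/DSS library below an untreated one, Ctrl_Swim 3. Trem1 rose by 3.87 ± 0.96 on the log2 scale in Model against Ctrl (SE, n = 3 per group; edgeR adjusted p = 0.0115), with 79 counts in the Model libraries and 5 in the Ctrl libraries. The ratio of these counts was 15.9, with a 95% counting interval of 6.52 to 50.2.

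Clec4d, a C-type lectin that binds fungal and mycobacterial cell walls, held 0.442, 0.218 and 0.0550 CPM in Ctrl 1, 2 and 3 and 2.14, 1.53 and 1.03 CPM in Model 1, 2 and 3. Ctrl_Swim 2, 3 and 4 held 0.274, 0.160 and 0.256 CPM, and Model_Swim 1, 2 and 3 held 1.65, 2.5 and 3.18 CPM. It was the only one of the 7 in which every AOM/DSS library, Model 3 included, lay above every untreated library. It also spread least within the AOM/DSS groups, with a coefficient of variation of 35.5% in Model and 31.4% in Model_Swim. The other 6 genes had at least 76.2% in Model (Trem1) and at least 40.8% in Model_Swim (Lcn2). Clec4d rose by 2.69 ± 0.57 on the log2 scale in Model against Ctrl (SE, n = 3 per group; edgeR adjusted p = 0.00553).

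**Figure D2:**
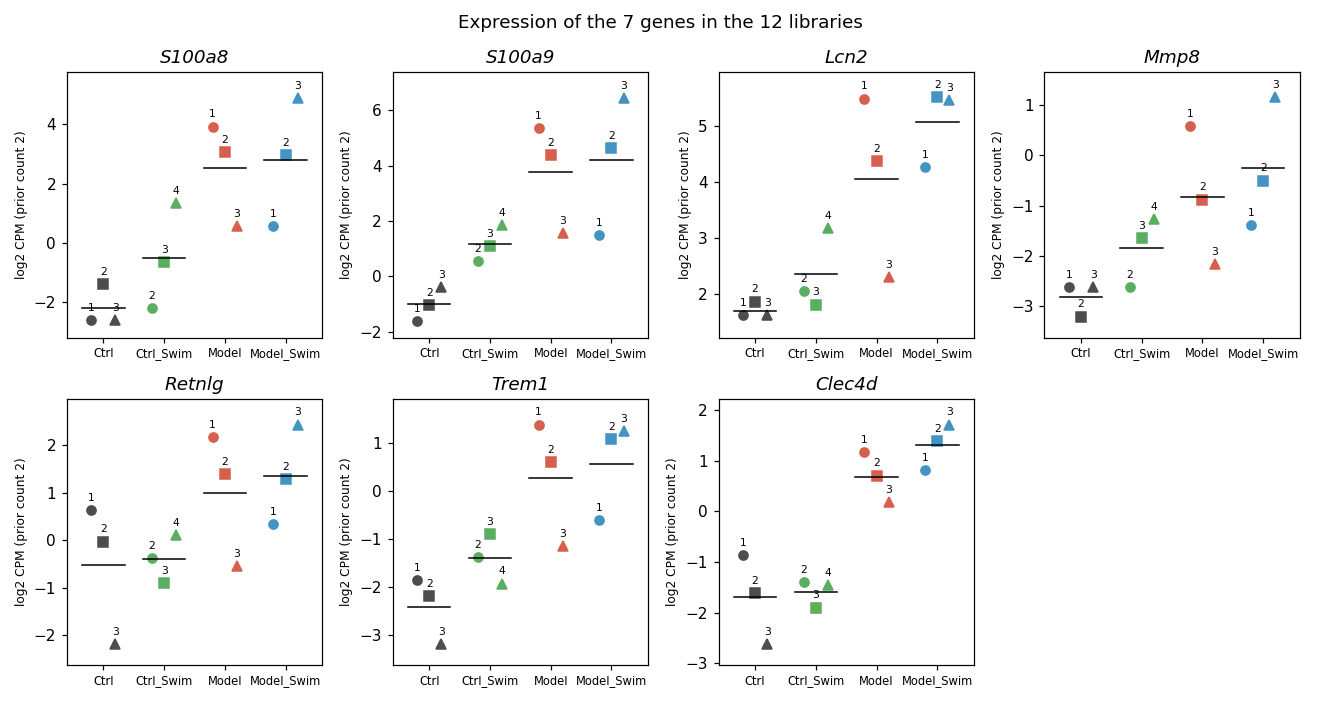
Each panel shows 1 of the 7 genes as log2 CPM with a prior count of 2, with 1 point per library, labelled by its replicate number, and a line at the group mean. Clec4d is the only panel in which all 6 AOM/DSS libraries lie above all 6 untreated libraries, and Model 3 lies lowest of the Model group in every panel.

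Within the AOM/DSS mice, the order of the libraries was shared by the genes. Model_Swim 3 was the highest of the 6 in 5 genes, with Model 1 highest for Trem1 and Model_Swim 2 for Lcn2. Model 3 was the lowest in 5 genes, and Model_Swim 1 was the lowest for S100a8 and S100a9. The summed CPM of the 7 genes was 111, 55.2 and 11.1 in Model 1, 2 and 3 and 26.7, 85.3 and 173 in Model_Swim 1, 2 and 3. It was 3.90 to 5.40 in Ctrl and 6.79 to 16.6 in Ctrl_Swim, where Ctrl_Swim 4 was the highest. These sums are levels that S100a9 and Lcn2 dominate. Model 3, the lowest of its group, lay above all 3 Ctrl libraries in 6 of the 7 genes (all but Retnlg) and above all 6 untreated libraries in Clec4d alone.

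Squamous epithelium genes moved in part with the 7 genes. Their summed CPM was high in Model 1, Model 2, Model_Swim 2, Model_Swim 3 and Ctrl_Swim 4 (1037 to 2278 CPM). These were also the highest libraries of their groups for S100a8, S100a9, Lcn2, Mmp8 and Retnlg. For Trem1 and Clec4d this held in Model and Model_Swim only. Ctrl_Swim 4 was the lowest of its group for Trem1 (0.153 CPM) and lay below Ctrl_Swim 2 for Clec4d (0.256 against 0.274 CPM). With the mean log2 CPM of the squamous list as a covariate, none of the 7 genes was called in Model against Ctrl (0 of 7). The edgeR adjusted p ran from 0.0524 for Clec4d to 0.318 for Mmp8 in the 6 genes called without it and was 0.999 for Retnlg. The log2 fold changes in that fit were 3.55 for S100a9, 3.48 for S100a8, 2.86 for Trem1, 2.58 for Mmp8, 2.09 for Clec4d, 1.07 for Lcn2 and 0.0010 for Retnlg. In this fit 1 further coefficient is taken from 12 libraries in which the covariate itself differed between groups. In Model 3, where the squamous sum was 39.8 CPM against 17.3 to 24.5 in Ctrl, S100a8 was 10.8-fold, S100a9 6.82-fold, Clec4d 4.34-fold, Trem1 3.76-fold, Mmp8 3.13-fold, Lcn2 1.52-fold and Retnlg 0.712-fold the Ctrl mean in CPM. All 20 squamous genes were tested, and 16 rose in Model against Ctrl, among them the keratins Krt5, Krt13 and Krt14. Their part in the levels of the 7 genes was not tested. The acinar signal was strongest in Model 1 and Model 3, which lie at opposite ends of the Model group for S100a8, and its part was not tested. A fit without both leaves Model 2 alone in its group and assumes that it varies like the libraries of the other groups. In that fit 5 of the 7 genes were called, and Mmp8 was not (edgeR adjusted p = 0.1).

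**Figure D3:**
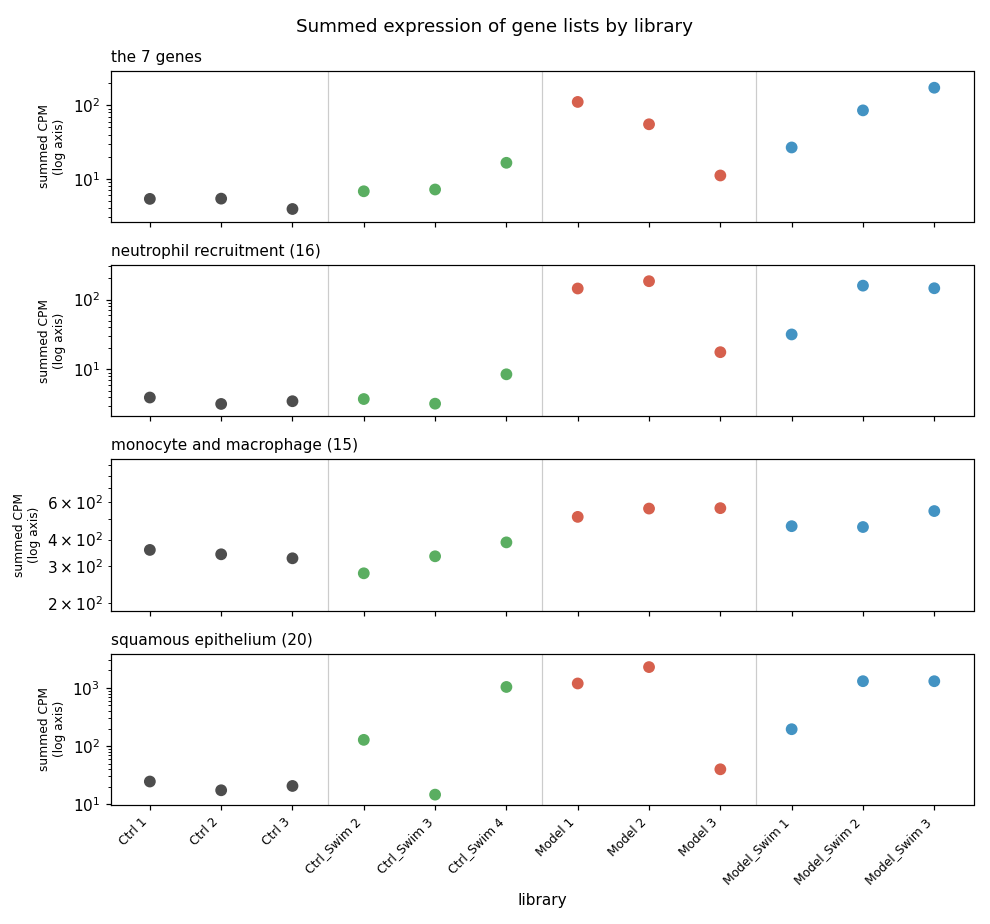
Summed CPM of 4 gene lists in each of the 12 libraries, on log axes, coloured by group. The 7 genes, the recruitment genes and the squamous genes are lowest among AOM/DSS libraries in Model 3, at 11.1, 17.7 and 39.8 CPM, whereas the monocyte and macrophage genes are at 563 CPM there.

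Swimming was compared within the AOM/DSS mice. None of the 7 genes was called in Model_Swim against Model (0 of 7), and 0.0710% of all genes tested were called in either direction. The log2 fold changes were all positive, from 0.17 ± 0.73 for Trem1 to 0.83 ± 0.97 for S100a9 (SE, n = 3 per group), with edgeR adjusted p from 0.602 (Clec4d) to 0.944 (Trem1), and 0 of 7 had an unadjusted p under 0.05 by edgeR or by DESeq2. The groups overlapped in each of the 7 genes, where 16.9% of all genes tested had no overlap in either direction. The 95% intervals were wide, from -1.06 to 2.72 for S100a9 and from -0.30 to 1.58 for Clec4d, the gene with the narrowest interval. Model_Swim 3 set the direction in several genes. Without it the log2 fold change was -0.88 for S100a8, -0.66 for S100a9, -0.59 for Mmp8 and -0.53 for Retnlg, and without Model 1 these were 1.42, 1.69, 1.82 and 0.92. For Trem1 it lay between -0.28 without Model 3 and 0.86 without Model 1. Traces of pancreatic RNA divided the libraries as well. The summed count of 6 pancreatic genes was at most 33 in all 3 Model_Swim libraries, Ctrl_Swim 2 and Ctrl_Swim 4, and at least 380 in the others. With this division as a term, 4 of the 7 changes in Model_Swim against Model were negative, and swimming and the division cannot be told apart within the AOM/DSS mice. Model and Ctrl lie on the same side of it.

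In untreated mice, none of the 7 genes was called in Ctrl_Swim against Ctrl (0 of 7), where 0.168% of all genes were called in either direction. S100a8 had a log2 fold change of 2.96 ± 1.68 (SE, n = 3 per group; edgeR adjusted p = 0.378) and S100a9 of 2.43 ± 1.49 (adjusted p = 0.412). In 1 of the 7 genes, S100a9, all 3 Ctrl_Swim libraries lay above all 3 Ctrl libraries, and 27.4% of all genes tested had no overlap in either direction. Retnlg and Clec4d had log2 fold changes of -0.23 ± 0.89 and -0.05 ± 0.63 (SE, n = 3 per group). At an unadjusted p under 0.05 edgeR gave 0 of the 7 genes and DESeq2 gave 2. Fitted with only the Ctrl and Ctrl_Swim libraries, S100a9 was called.

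The effect of AOM/DSS in swimming mice was read from Model_Swim against Ctrl_Swim. Lcn2 and Clec4d were called higher (2 of 7), where 0.924% of all genes were called higher. Lcn2 had a log2 fold change of 2.71 ± 0.66 (SE, n = 3 per group; edgeR adjusted p = 0.0412) and Clec4d of 3.37 ± 0.57 (adjusted p = 0.0110). S100a9 had a log2 fold change of 4.05 ± 1.14 with an adjusted p of 0.0652 and S100a8 one of 3.62 ± 1.19 with an adjusted p of 0.104, and all 7 genes had an unadjusted p under 0.05, as did 22.4% of all genes tested. In 4 genes, Lcn2, Retnlg, Trem1 and Clec4d, the 3 Model_Swim libraries lay above all Ctrl_Swim libraries, as in 15.9% of all genes tested. The number called depended on single libraries. It was 0 without Ctrl_Swim 3, 1 without Ctrl 1, Ctrl 2, Ctrl 3, Ctrl_Swim 2, Ctrl_Swim 4, Model_Swim 2 or Model_Swim 3, 3 without Model 1 and 4 without Model 3, while DESeq2 called 5. With the pancreatic division as a term it was 0, at an edgeR adjusted p of 0.0519 for Clec4d. The difference between the AOM/DSS effect in swimming and in other mice was tested as an interaction. None of the 7 genes was called in it (0 of 7), nor any of the genes tested (0%), and 0 of 7 had an unadjusted p under 0.05 by edgeR or DESeq2. By DESeq2, 213 genes of all those tested were called in it. The estimates ran from -2.31 ± 2.01 for S100a8 to 0.69 ± 0.81 for Clec4d (log2, SE, n = 3 per group).

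**Figure D4:**
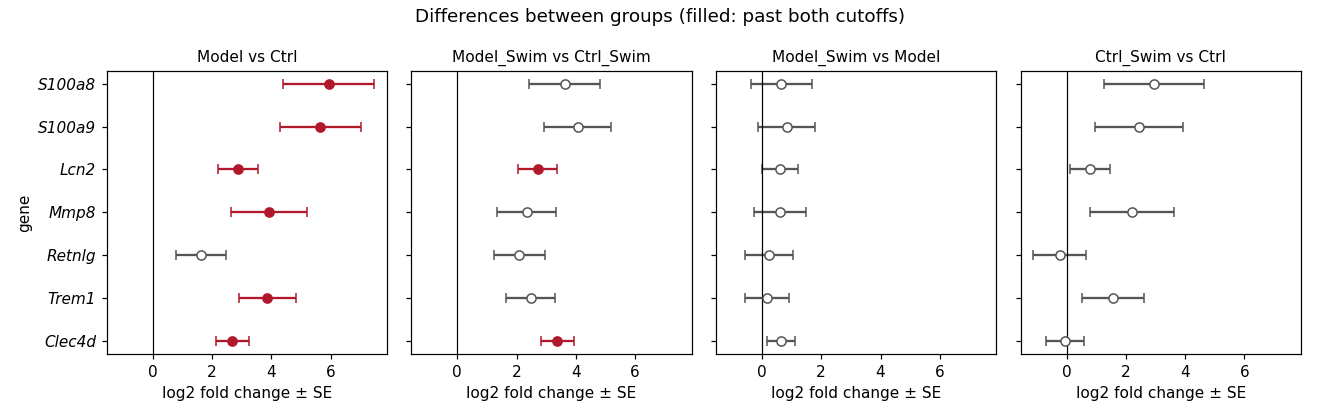
Log2 fold changes with standard errors of the 7 genes in 4 comparisons, with filled points for genes past both cutoffs. There are 6 filled points in Model vs Ctrl, 2 in Model_Swim vs Ctrl_Swim (Lcn2 and Clec4d) and 0 in both swimming comparisons.

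The genes can be ordered by their level per length. The mean FPKM in Model was 41.9 ± 37.0 for S100a9, 27.9 ± 23.8 for Lcn2, 21.4 ± 17.7 for S100a8, 4.18 ± 3.19 for Retnlg, 1.20 ± 0.42 for Clec4d, 0.383 ± 0.290 for Trem1 and 0.269 ± 0.274 for Mmp8 (SD, n = 3). Across the 3 libraries the ranges of neighbours in this order overlapped, except for Clec4d and Trem1. Within each library the order held, except that Lcn2 was above S100a9 in Model 3 (5.71 against 5.53 FPKM). In Ctrl the order was different, with Lcn2 at 3.50 ± 0.40 FPKM, Retnlg at 1.25 ± 1.02 FPKM, S100a9 at 0.757 ± 0.399 FPKM and S100a8 at 0.309 ± 0.307 FPKM (SD, n = 3). By its range, Lcn2 alone stood clear of its neighbour in that order, while S100a9 was above S100a8 within each Ctrl library. Across groups, the mean CPM followed the order Ctrl, Ctrl_Swim, Model and Model_Swim in 5 genes, and in Retnlg and Clec4d Ctrl_Swim was below Ctrl by less than the spread between libraries.

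Other granule protein genes gave a divided picture. Of 19 genes listed, 18 were in the table and 11 were tested, and 6 rose and 0 fell in Model against Ctrl, with a median log2 fold change of 2.32 beside 0.01 over all genes tested. Ltf, lactoferrin of specific granules, rose by 7.35 ± 1.90 on the log2 scale (edgeR adjusted p = 0.0141). Its level was 192, 329 and 0.976 CPM in Model 1, 2 and 3, so that Model 3 lay within the Ctrl range of 0.773 to 1.31 CPM, and glandular epithelium is also known to make it. Lyz2, lysozyme of myeloid cells, rose by 1.35 ± 0.12 on the log2 scale (adjusted p = 0.000285) without overlap, and Padi4, which citrullinates histones in neutrophils, rose by 3.84 ± 1.11 (adjusted p = 0.0226). Mmp25, a membrane-bound metalloprotease of neutrophils, rose by 1.29 ± 0.41 (adjusted p = 0.0325), and BC100530, a stefin gene of a family whose copies are alike in sequence, rose by 6.34 ± 2.24 (adjusted p = 0.0495).

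The genes of azurophil granules, which are transcribed in the bone marrow and shut off before neutrophils enter the blood, were near 0. Mpo, Elane, Prtn3, Ctsg and Prss57 did not pass the filter on low counts, and the highest value among them was 1.02 CPM, of Mpo in Model 1. Elane, neutrophil elastase, was at 0 in 9 of the 12 libraries. Low levels were not limited to azurophil genes. Camp and Stfa2l1 did not pass the filter either, with at most 1.23 and 0.371 CPM. Ngp, Mmp9, Wfdc21 and Chil3 were tested and not called in Model against Ctrl (edgeR adjusted p = 0.0605, 0.0649, 0.122 and 0.214). Pglyrp1, a peptidoglycan-binding protein of granules, was abundant in every library (98.9 to 291 CPM) and was not called in Model against Ctrl (log2 fold change 0.48 ± 0.25, edgeR adjusted p = 0.163). Which cells gave its signal was not tested.

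Of 24 neutrophil surface and signalling genes, 22 were tested, and 12 rose and 0 fell in Model against Ctrl, with a median log2 fold change of 1.11. Cxcr2, the receptor for neutrophil-attracting chemokines, held 0.110, 0.164 and 0.110 CPM in Ctrl 1, 2 and 3 and 4.34, 2.34 and 1.66 CPM in Model 1, 2 and 3, a rise of 4.37 ± 1.10 on the log2 scale (edgeR adjusted p = 0.0122). Clec4e, the lectin that pairs with CLEC4D, rose by 4.37 ± 1.01 (adjusted p = 0.00846). The formyl peptide receptor genes Fpr1 and Fpr2 rose by 4.12 ± 0.90 (adjusted p = 0.00661) and 3.36 ± 1.06 (adjusted p = 0.0325). In these 4 genes the Model libraries lay above all Ctrl libraries. Ly6g, the surface marker used to define mouse neutrophils, was at 17.8, 6.98 and 17.8 CPM in Ctrl and 44.9, 42.2 and 7 CPM in Model, which overlap, and was not called (adjusted p = 0.162). Cd177, also a neutrophil surface gene, was at 350 to 468 CPM in Ctrl and 436 to 504 CPM in Model (adjusted p = 0.442). Cxcr2 was at most 0.164 CPM in the same Ctrl libraries, and which cells gave the Cd177 signal was not tested.

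The partners of the 7 gene products were also measured. Tyrobp, the adaptor of TREM1, rose by 1.22 ± 0.20 on the log2 scale (edgeR adjusted p = 0.00195), and Fcer1g, the adaptor of CLEC4D, rose by 1.24 ± 0.15 (adjusted p = 0.000559). Both were without overlap in Model against Ctrl. The receptors proposed for calprotectin and LCN2 were not called. Tlr4 had a log2 fold change of -0.01 ± 0.06 (adjusted p = 0.920), Ager, the gene of RAGE, one of 0.91 ± 0.36 (adjusted p = 0.0729), and Slc22a17, which encodes an LCN2 receptor, one of 0.24 ± 0.17 (adjusted p = 0.313). CLEC4D signals through SYK and the proteins CARD9, BCL10 and MALT1. Card9 rose by 1.08 ± 0.33 on the log2 scale (adjusted p = 0.0271). Syk and Malt1 were under the fold cutoff, with log2 fold changes of 0.56 ± 0.08 (adjusted p = 0.000829) and 0.44 ± 0.10 (adjusted p = 0.00816), and Model lay above Ctrl without overlap in these 3 genes. Bcl10 had a log2 fold change of 0.07 ± 0.07 (adjusted p = 0.440).

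Genes that recruit neutrophils were also measured. Of 16 listed, 11 were tested, and 9 rose and 0 fell in Model against Ctrl, with a median log2 fold change of 4.63. Cxcl5, a chemokine of epithelium that binds CXCR2, held 0.276, 0.327 and 0.220 CPM in Ctrl 1, 2 and 3 and 55.5, 35.1 and 2.98 CPM in Model 1, 2 and 3, a rise of 6.79 ± 1.20 on the log2 scale (edgeR adjusted p = 0.00246). Model 3 was the lowest Model library here too. Ppbp, a related chemokine, rose by 6.79 ± 1.74 (adjusted p = 0.0135) with overlap, since Model 3 held 0.517 CPM. Il1a and Il1b, the interleukin 1 genes, rose by 5.36 ± 1.00 (adjusted p = 0.00324) and 4.09 ± 0.55 (adjusted p = 0.000737), and Cxcl2 and Cxcl1 rose by 4.98 ± 1.19 (adjusted p = 0.00967) and 4.63 ± 1.09 (adjusted p = 0.00917). Cxcl3 was at 0 counts in all 6 untreated libraries and in Model 3, and its mean in Model was at least 18.0-fold higher than the floor of 3 counts per library, but it was not called (adjusted p = 0.0527). It is named for its zeros, after its values were seen.

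Epithelial antimicrobial and alarm genes changed in part. Of 14 tested, 6 rose and 0 fell in Model against Ctrl, with a median log2 fold change of 0.82. Nos2, the inducible nitric oxide synthase, rose by 3.85 ± 0.56 on the log2 scale (edgeR adjusted p = 0.00101) and Slpi, a protease inhibitor of mucosa, by 3.31 ± 0.51 (adjusted p = 0.00132), each with Model 3 above all Ctrl libraries. Duoxa2 and Duox2, the maturation factor and enzyme of epithelial peroxide production, rose by 1.85 ± 0.26 and 1.14 ± 0.17, and S100a14, a relative of the calprotectin genes, rose by 1.13 ± 0.40 (adjusted p = 0.0481). The 3 genes of the list with the highest mean FPKM did not pass both cutoffs, with log2 fold changes of -0.55 ± 0.09 for Pigr, the antibody transporter, 0.58 ± 0.17 for S100a11 and 1.06 ± 0.41 for Saa1.

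Markers of other immune cells were set beside these. Of 15 monocyte and macrophage genes, all tested, 5 rose and 1 fell in Model against Ctrl, and their median log2 fold change was 0.80. Cd68 rose by 1.21 ± 0.14 and Fcgr1 by 1.69 ± 0.31, and Cd163, a scavenger receptor of resident macrophages, fell by 1.45 on the log2 scale (edgeR adjusted p = 0.0110). The summed CPM of this list was 512 to 563 in Model and 326 to 357 in Ctrl, and unlike the 7 genes it was not lower in Model 3 than in Model 1 and 2. Of 11 eosinophil and mast cell genes 10 were tested, and 3 mast cell protease genes rose (Cpa3, Cma1 and Tpsb2). Of 10 blood cell genes 7 were tested and 0 were called, with a summed CPM of 46.3 to 89.2 in Ctrl and 28.3 to 91.1 in Model. Of 12 colon epithelium genes, 0 passed both cutoffs, but 5 passed the adjusted p alone, 10 had a negative log2 fold change and the median was -0.54. Their summed CPM was 14967 to 29348 in Model and 33623 to 39707 in Ctrl, without overlap. It lay below Ctrl in both swimming groups as well, at 24278 to 30123 in Ctrl_Swim and 25672 to 32531 in Model_Swim. The part of these differences in the levels of the 7 genes was not tested. The part of other immune cells in the levels of the 7 genes was not tested.

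**Figure D5:**
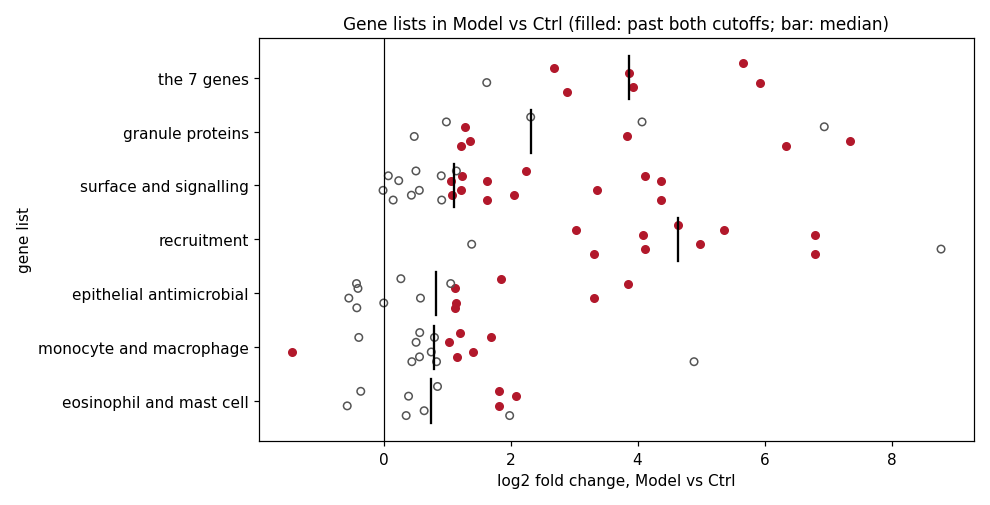
Log2 fold change of Model vs Ctrl for the 7 genes and the tested genes of 6 lists, with 1 point per gene, filled where past both cutoffs, and a bar at the median. The median is 3.87 for the 7 genes, 4.63 for recruitment, 2.32 for granule proteins and at most 1.11 for the other 4 lists.

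Relatives of the 7 genes did not all follow them. Of 30 genes of the same families 23 were tested, and 11 rose and 2 fell in Model against Ctrl. Mmp10, Mmp7 and Mmp3, metalloproteases of stroma and epithelium, rose by 3.61 ± 0.45, 3.43 ± 0.98 and 3.26 ± 0.44 on the log2 scale. Retnlb, the resistin-like protein of goblet cells, fell by 2.55 on the log2 scale (edgeR adjusted p = 0.00388), from 1999 CPM on average in Ctrl to 341 CPM in Model, and it was at 354 CPM in Ctrl_Swim. S100a6 and S100a10, the S100 genes of the list with the highest mean FPKM, had log2 fold changes of -0.03 ± 0.19 and -0.20 ± 0.09 and were not called, while S100a3 rose by 5.52 ± 1.60 (adjusted p = 0.0234) with Model 3 inside the Ctrl range. In Model_Swim against Model, 0 genes of any of these 11 lists were called.

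In Model_Swim against Ctrl_Swim, 0 granule protein genes, 4 surface and signalling genes and 5 recruitment genes were called higher. Il1b had a log2 fold change of 3.69 (edgeR adjusted p = 0.00609) and Clec4e one of 5.17 (adjusted p = 0.0273). The summed CPM of the recruitment list was 31.7 to 158 in Model_Swim and 3.25 to 8.54 in Ctrl_Swim, with Ctrl_Swim 4 the highest, as for the 7 genes. Model_Swim against Ctrl_Swim shares no library with Model against Ctrl, but both were tested in the same fit with a shared estimate of the spread.

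Genes with the most similar pattern were sought among 13952 genes by the correlation of log2 CPM with the mean of the 7 genes over the 12 libraries. These were Aldh1a3, a retinaldehyde dehydrogenase (Pearson r = 0.969), Ifitm1, an interferon-induced membrane protein (r = 0.962), Pi15 (r = 0.960), Pdpn, podoplanin (r = 0.956), and Syt16 (r = 0.956), with Spearman's rho of 0.972, 0.937, 0.937, 0.958 and 0.965. The points share the split between AOM/DSS and untreated libraries and the squamous signal, so these are descriptions. For Lcn2 the closest gene was Slc26a9, a chloride transporter (r = 0.980), for Clec4d Prdm4 (r = 0.966), for Trem1 Ifitm1 (r = 0.970), for S100a8 Tacr1 (r = 0.956) and for S100a9 Zc3h12c (r = 0.956). For Mmp8 it was Hdc, the histamine-forming enzyme (r = 0.942), and for Retnlg Rab44 (r = 0.896).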

How the data were processed

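RNA of mouse colorectal tissue was measured in 12 libraries, 3 in each of 4 groups taken from the labels. RNA extraction is given as TRIzol in the methods and as a mirVana kit in the labels, and the library kit keeps strand. Reads were trimmed by the authors (Trimmomatic) and mapped with HISAT2 to GRCm38.p6, which the submitters' processing notes also name. The authors deposited raw counts per gene from HTSeq-count and FPKM values from Cufflinks. Tool versions, the annotation release and the strand setting were not given in the sources used here.

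The counts were tested with edgeR 4.0.16 in R 4.3.3, using TMM scaling, filterByExpr (minimum count 10, keeping 15484 of 18514 genes), a quasi-likelihood fit of the 4 groups, and Benjamini-Hochberg adjustment within each comparison. A call needed an adjusted p below 0.05 together with a fold above 2 or below 0.5, the cutoffs of the study, whose own tool was DESeq2. Standard errors were taken from the log2 fold change and its F statistic. Log2 CPM used a prior count of 2, and likeness was ranked among named genes whose mean reached 1 CPM, without pseudogenes or segments of antigen receptors. The 7 genes and all lists were chosen with earlier results of these data known. The text names the 7 genes and their partners, and from each list up to 5 called genes with the largest change and up to 3 with the highest mean FPKM, of which only examples are given for the lists of other tissues and cells. The uncalled and untested genes of the granule protein list are named as well. Alternatives were DESeq2 1.42.0 and its size factors, no filter, the adjusted p alone, a fit to just both groups of a comparison, a replicate block, limma 3.58.1 on log2(FPKM + 1) for a mean FPKM of at least 0.5, with a pseudocount of 0.1 and without that filter, a term for traces of pancreatic RNA, and each library left out. A squamous covariate, and leaving out Model 1 and Model 3 together, were chosen after seeing the data. The plain group fits of edgeR, DESeq2 and limma had been tried on simulated counts, but the permutation test, the counting intervals and the fits with added terms had not. Promoters came from RefSeq (GRCm38.p6). The values of 1 listed gene are not reported here.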

Additional observations from a re-analysis of the deposited data

How the results depend on the processing

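Of the 7 genes, 6 were called in Model against Ctrl, and the count was 3 by limma on log2(FPKM + 1) with and without its filter, 0 with the squamous covariate and 5 with the replicate block, where Mmp8 was lost. It was 4 without Ctrl 1 and without Ctrl 3. In Ctrl_Swim against Ctrl, 1 gene was called when only the groups compared were fitted. In Model_Swim against Ctrl_Swim, 2 were called, and the count was 5 by DESeq2, 0 with the replicate block, 1 by limma on log2(FPKM + 1) without a filter, 0 with the pancreatic term, 4 without Model 1 and Model 3 together (which leaves Model 2 alone in its group), and 0 to 4 with single libraries left out. Over the 3 neutrophil lists, 9 genes were called there, and the count was 15 by DESeq2, 0 with the replicate block and 1 to 16 with single libraries left out, the lowest without Ctrl_Swim 2, Ctrl_Swim 3 or Model_Swim 3, 2 without Model_Swim 2, 4 without Ctrl_Swim 4 and the highest without Model 3. The deviations of same-numbered libraries had no common direction (15 pairs, r from -0.26 to 0.56, median 0.0046, 4 over 0.1). The highest r was that of Ctrl_Swim 3 with Model 3, and Ctrl_Swim 4 with Model_Swim 2, of different numbers, reached 0.45. Whether the numbers mark a pairing was not tested.

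Signs changed only in uncalled differences. In Model_Swim against Model, the log2 fold change with the pancreatic term was -0.62 for S100a8, -0.31 for Lcn2, -0.70 for Retnlg and -0.068 for Clec4d. With single libraries left out it was -0.88 to 1.42 for S100a8, -0.66 to 1.69 for S100a9, -0.59 to 1.82 for Mmp8, -0.53 to 0.92 for Retnlg and -0.28 to 0.86 for Trem1. In Ctrl_Swim against Ctrl, Lcn2 was at -0.35 with the squamous covariate. Retnlg was at 0.041 by limma on log2(FPKM + 1), with or without its filter, at 0.31 with the pseudocount of 0.1, and at -0.73 to 0.49 with single libraries left out. Clec4d was at 0.039 with the replicate block, at 0.017 by limma on log2(FPKM + 1), with or without its filter, at 0.17 with the pseudocount of 0.1, and at -0.49 to 0.74 with single libraries left out. In the interaction, Lcn2 was at 0.49 with the replicate block, 0.29 by limma on log2(FPKM + 1) with or without its filter, 0.24 with the pseudocount of 0.1, 1.08 with the squamous covariate, 0.019 without Model 1 and Model 3, and -0.67 to 0.68 with single libraries left out. Mmp8 was there at 0.046 by limma without a filter, and with single libraries left out Retnlg was at -0.32 to 1.13 and Clec4d at -0.11 to 1.12. The log2 ratio of S100a8 to S100a9 differed between Model and Ctrl by -0.037 to 1.51 with single libraries left out. The cause of these changes was not tested. Depth limits Mmp8, Trem1 and Clec4d most, at 0 to 8 counts in each untreated library.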

Other observations

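The mast cell protease genes Mcpt1 and Mcpt2 had the order of group means seen in Retnlg and Clec4d, unlike that of most of the 7 genes. Ctrl 1, 2 and 3 spread widely for Mcpt1 (40.1, 5.29 and 22.7 CPM), and Ctrl 2 lay below Ctrl_Swim 2 (5.53 CPM). Mcpt1, a protease of mucosal mast cells, averaged 3.42 CPM in Ctrl_Swim and 22.7 CPM in Ctrl, against 39.9 CPM in Model_Swim and 29.0 CPM in Model. Mcpt2 was likewise lowest in Ctrl_Swim (1.58 CPM on average) and highest in Model_Swim (20.9 CPM). Mcpt1 had a log2 fold change of 3.55 in Model_Swim against Ctrl_Swim (edgeR adjusted p = 0.0402), and Cma1 and Tpsb2 had 2.20 (adjusted p = 0.0255) and 3.01 (adjusted p = 0.00790). The haemoglobin gene Hba-a1 averaged 34.0 CPM in Ctrl_Swim and 7.30 CPM in Model_Swim, a log2 fold change of -2.22 (adjusted p = 0.0482).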
